A study of Mus musculus with 12 samples.

Results

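Itgb2, the integrin beta 2 chain (CD18), was examined together with 9 other integrin genes that leukocytes use, in cultured plasmablasts (PBs) and splenic plasma cells (PCs) of mice lacking the transcription factor Xbp1 or Mist1. The 10 genes were Itgb2 with its alpha partners Itgal, Itgam and Itgax, Itga4 with its beta partners Itgb1 and Itgb7, and Itgb3, Itgav and Itga6. They were taken by symbol from the 24189 genes listed in all 10 RNA-seq libraries, and all 10 were found. Itgb2 was chosen by its TPM in PBs with and without Xbp1, where it fell so far, so its values in that comparison are given as a description with no test. The other 9 genes were chosen as its partners and as the other chains of the family.

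Integrins are receptors of one alpha and one beta chain that leave the endoplasmic reticulum as a pair, and they hold leukocytes to endothelium, matrix and other cells. The beta 2 chain pairs with Itgal (CD11a) to form LFA-1, which binds ICAM proteins, and with Itgam (CD11b) or Itgax (CD11c) in receptors typical of myeloid cells. Itga4 pairs with Itgb1 in a receptor for VCAM-1 and fibronectin, or with Itgb7 in the gut homing receptor for MAdCAM-1. Xbp1 is the transcription factor of the unfolded protein response that plasma cells need for secretion, and Mist1, encoded by Bhlha15, is a basic helix-loop-helix factor of secretory cells.

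The 5 groups held 2 libraries each, from spleen cells of C57BL/6 mice. The 3 PB genotypes were Xbp1(fl/fl), here called control PBs, then Xbp1(fl/fl) carrying Cd23-Cre, here called Xbp1-deficient PBs, and Bhlha15(CreER/CreER), here called CreER PBs. The 2 PC genotypes were wildtype by their label and Bhlha15(fl/fl) by the study's methods, here called control PCs, and Bhlha15(fl/fl) carrying Cd23-Cre, here called Mist1-deficient PCs. The Cd23-Cre transgene deletes floxed genes from late in B cell maturation, and in CreER PBs both Bhlha15 alleles carry a CreER insertion. PBs were grown on irradiated 40LB feeder cells, a fibroblast line, for 8 days with IL-4 and then IL-21 and sorted by surface markers that included CD138, whereas PCs were sorted as TACI+CD138+ on day 7 after immunization with NP-KLH. The series' design text sets the CreER libraries apart as not used for differential analysis, and it exchanges plasma cell and plasmablast in the names of some groups; the sample labels were followed here. Mist1 binding came from 2 peak lists of biotin-tagged Mist1 in Bhlha15(fl/fl) R26(BirA/BirA) PBs that had been stimulated with LPS for 4 days.

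Expression is given as deposited TPM, a transcript level corrected for gene length and for the total of the library. Because TPM keep no record of depth, no counting interval could be given. Fold changes came from limma on log2(TPM + 0.1), after each set of libraries had been scaled by the median of ratios, and a gene was called at an adjusted p under 0.05. The TPM printed are those deposited, in which the median gene was 0.21 higher on the log2 scale in Xbp1-deficient than in control PBs, so a fold change after scaling can be lower than the ratio of the printed TPM. The study describes the libraries of a genotype as independent experiments, while the labels tie none of them to a culture or animal, so the p-values measure the spread between these libraries. Bhlha15 TPM were 176 and 159 in control PBs, 3.57 and 2.60 without Xbp1, 0.21 and 0.55 in CreER PBs, 258 and 242 in control PCs and 14.4 and 16.6 in Mist1-deficient PCs. Xbp1 TPM of the whole gene were 3168 and 3043 in control PBs and 1981 and 2024 in Xbp1-deficient PBs.

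The letters just upstream of Itgb2, Itgal and Itgb7 are shown because these 3 genes moved together in PCs without Mist1, and because the first 2 had a Mist1 region at their start. Each is the 250 bases before the annotated 5′ end on the gene's own strand (mm9), with E-boxes (CANNTG, the core bound by basic helix-loop-helix factors) in capitals. They lie at chr10:76992747-76992996 for Itgb2, chr7:134439524-134439773 for Itgal and chr15:102062367-102062616, on the minus strand, for Itgb7. The last sequence is the 200-base centre, at chr10:77029487-77029686, of a Mist1 region beyond the 3′ end of Itgb2.
Itgb2 promoter: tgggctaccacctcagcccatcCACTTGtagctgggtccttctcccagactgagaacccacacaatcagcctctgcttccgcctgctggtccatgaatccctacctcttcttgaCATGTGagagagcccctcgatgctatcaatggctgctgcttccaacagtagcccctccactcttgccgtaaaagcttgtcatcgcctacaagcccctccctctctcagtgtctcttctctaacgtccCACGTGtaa
Itgal promoter: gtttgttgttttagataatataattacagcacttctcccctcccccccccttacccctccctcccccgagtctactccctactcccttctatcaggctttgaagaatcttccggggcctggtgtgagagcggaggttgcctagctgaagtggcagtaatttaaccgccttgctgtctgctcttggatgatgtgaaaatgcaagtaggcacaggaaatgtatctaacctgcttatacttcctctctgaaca
Itgb7 promoter: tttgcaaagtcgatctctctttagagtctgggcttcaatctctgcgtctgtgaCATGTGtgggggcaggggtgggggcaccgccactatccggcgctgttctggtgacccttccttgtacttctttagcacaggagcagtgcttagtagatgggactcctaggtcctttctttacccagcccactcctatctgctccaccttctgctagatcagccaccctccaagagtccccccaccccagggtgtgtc
Itgb2 downstream Mist1 region: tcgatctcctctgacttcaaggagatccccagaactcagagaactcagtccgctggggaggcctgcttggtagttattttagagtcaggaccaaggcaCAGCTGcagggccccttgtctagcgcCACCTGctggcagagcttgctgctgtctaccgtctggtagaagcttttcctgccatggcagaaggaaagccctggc
Itgb2 held 3 E-boxes in this window, Itgb7 held 1 and Itgal held 0, while 63.5% of 22359 protein-coding promoters of this length held at least 1 on either strand. The centres of the Mist1 regions at the Itgb2 and Itgal starts lie downstream of these windows, and their E-boxes are given further on. The E-box nearest to the Itgb2 start, CACGTG, is preceded by C and so overlaps the letters CCACG, which are part of motifs read by Xbp1. CCACG was also in the Itgb3 promoter and was present in 31.1% of all promoters. TGACGTG, present in 1.68%, was in none of the 10 promoters examined. A match of letters is a description and no evidence of binding.

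Itgb2 was among the most abundant integrin mRNAs in control cells of both kinds and was nearly lost without Xbp1. Itgb2 TPM were 339 and 313 in control PBs, 19.6 and 20.0 in Xbp1-deficient PBs, 273 and 265 in CreER PBs, 402 and 344 in control PCs and 196 and 197 in Mist1-deficient PCs. From high to low, the group means were 373 ± 41 in control PCs, 326 ± 18 in control PBs, 269 ± 5.3 in CreER PBs, 197 ± 0.53 in Mist1-deficient PCs and 19.8 ± 0.29 in Xbp1-deficient PBs (TPM, SD, n = 2). The libraries of neighbouring groups in this order did not overlap, but the first 2 groups were not called different after scaling, and the difference between control and CreER PBs did not pass the test given further on. CreER PBs and Mist1-deficient PCs were not tested against each other.

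**Figure D1:**
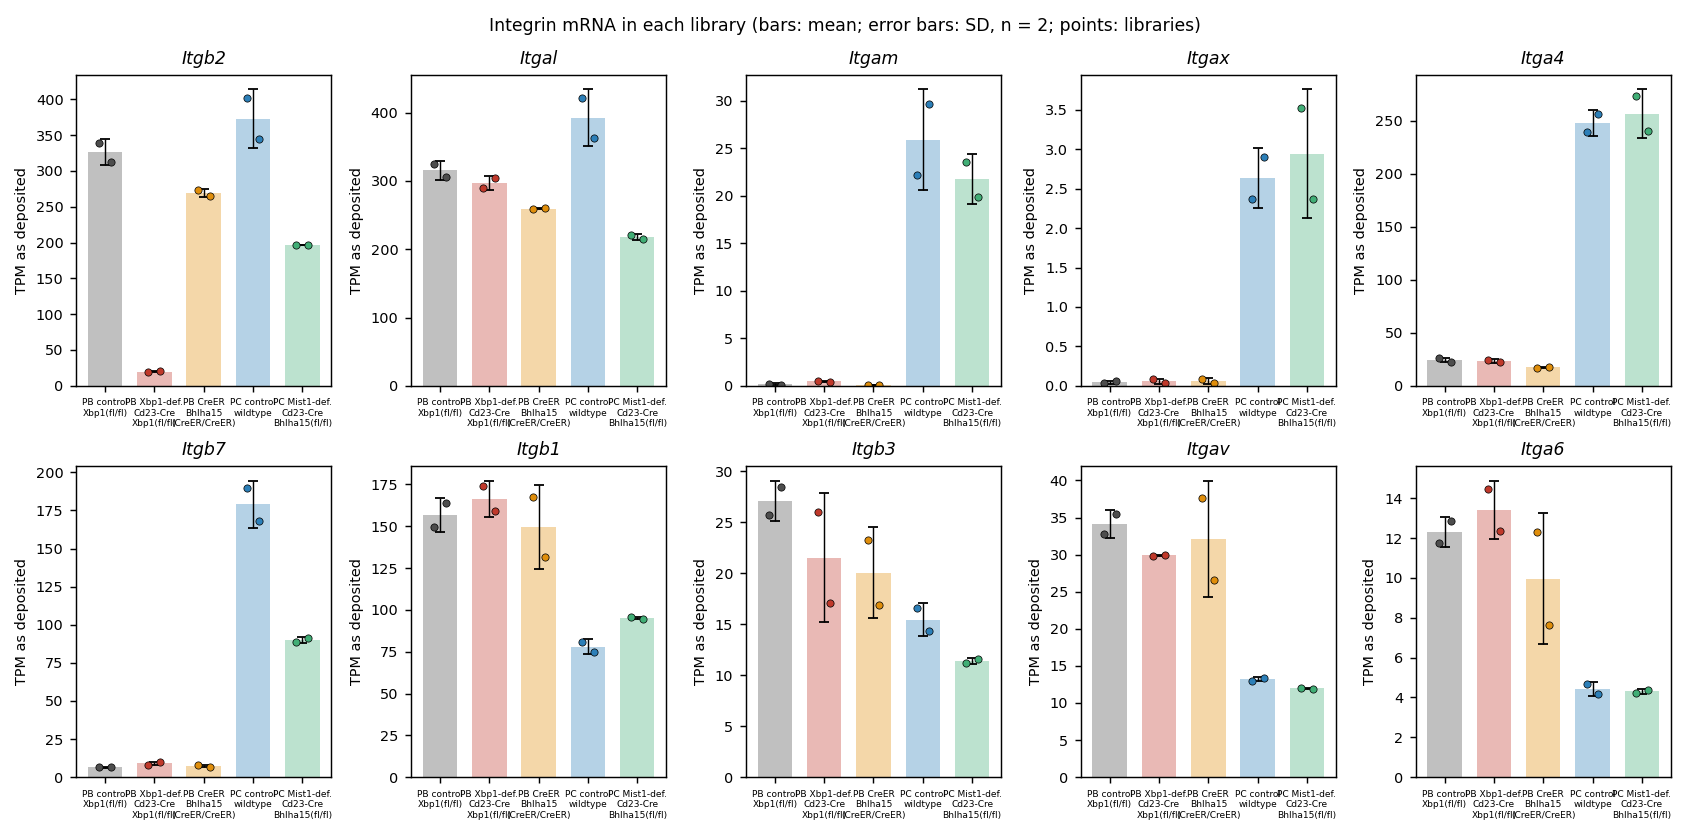
TPM of each integrin gene (y axis, a linear scale of its own for each gene) in the 5 groups, with bars for the mean, error bars for the SD of 2 libraries and points for the libraries. Itgb2 stands at 19.6 and 20.0 TPM in Xbp1-deficient PBs, where Itgal stands at 290 and 304, and Itga4, Itgb7, Itgam and Itgax are high in PCs.

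The first question was whether the alpha partners and the other beta chains followed Itgb2 in PBs without Xbp1. The log2 fold change of Itgb2 was -4.24 (SE 0.09), which is 18.9-fold lower, and 1.63% of all genes were lower by the study's rule of over 3-fold. Itgal, which encodes the alpha L chain, had TPM of 325 and 306 in control PBs and 290 and 304 in Xbp1-deficient PBs. Thus Itgal kept most of its mRNA, and its log2 fold change was -0.29 (SE 0.09; limma adjusted p = 0.0425). The Itgb2 to Itgal ratio of TPM accordingly went from 1.04 and 1.02 to 0.0675 and 0.0657, and it was 1.05 and 1.02 in CreER PBs. Itgam and Itgax, the alpha chains of myeloid integrins, were below 1 TPM in all 6 PB libraries and did not pass the filter there. Itgam TPM were 0.23 and 0.13 in control PBs, 0.51 and 0.45 in Xbp1-deficient PBs and 0.10 and 0.10 in CreER PBs.

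Of the 7 other genes that passed the filter in PBs, 2 were called lower and 0 higher, where 18.0% of 12125 genes were called lower and 10.3% higher. The second of the 2, besides Itgal, was Itgav, the alpha V chain of vitronectin receptors, with TPM of 32.8 and 35.5 in control and 29.9 and 30.0 in Xbp1-deficient PBs (log2 fold change -0.40, SE 0.12, limma adjusted p = 0.0336). The exons of Itgav overlap those of Gm13684 on the opposite strand, and the part of that overlap was not tested. Both calls were small and did not hold under every setting. On TPM as deposited, without that scaling, the fold changes were -0.086 for Itgal and -0.19 for Itgav (limma adjusted p = 0.217 and 0.348). Leaving out the scaling also turned the calls over all genes from 2186 lower and 1250 higher to 1357 lower and 3423 higher. Both calls were also lost when any of the 4 libraries compared was left out, with adjusted p of 0.0654 to 0.293 for Itgal and 0.102 to 0.137 for Itgav.

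None of the other beta chains fell as far as Itgb2. Itgb1 TPM, which encode the beta chain of most matrix receptors, were 150 and 164 in control PBs and 174 and 159 in Xbp1-deficient PBs, and these overlap (log2 fold change -0.12, SE 0.09, limma adjusted p = 0.366). Itgb7 TPM were 6.45 and 6.33 and then 8.20 and 9.89, higher in both libraries without Xbp1 though not called (0.28, SE 0.14, adjusted p = 0.169). On deposited TPM Itgb7 was called higher (0.49, adjusted p = 0.0466). Itgb3, the beta partner of Itgav, had TPM of 25.7 and 28.5 and then 25.99 and 17.1, so that 1 library lay low (-0.57, SE 0.19, adjusted p = 0.0556). Itgb3 was called lower with a filter of 5 TPM in 2 libraries and in a fit of only the libraries compared (adjusted p = 0.0314 and 0.0446). With a library left out its value ranged from -0.88 to -0.27. Itga4 and Itga6, a laminin receptor chain, had log2 fold changes of -0.25 and -0.087 (adjusted p = 0.168 and 0.758). In terms of mRNA, Itgb2 made up 63.1% ± 2.8 of the summed TPM of the 4 beta chains in control PBs and 9.15% ± 0.79 in Xbp1-deficient PBs, where Itgb1 took 76.8% ± 0.56 (SD, n = 2).

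**Figure D2:**
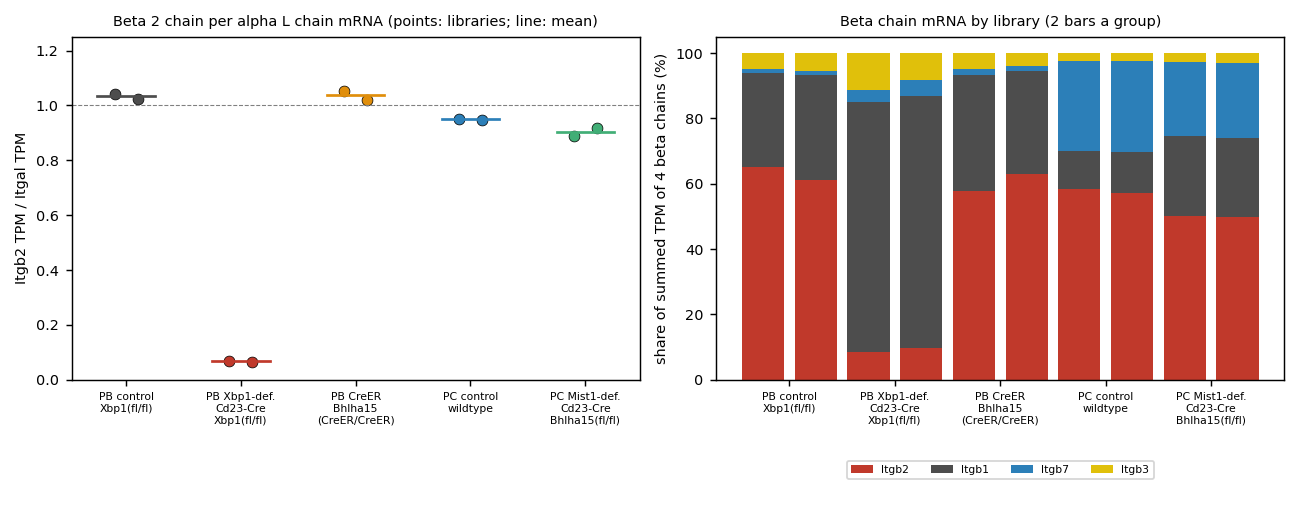
Left, the ratio of Itgb2 TPM to Itgal TPM (y axis, no unit) with a point for each library, a line for the group mean and a dashed line at 1. Right, the share of each beta chain in the summed TPM of Itgb2, Itgb1, Itgb7 and Itgb3 (y axis, percent), with 1 bar for each library. The ratio lies between 0.887 and 1.05 in 8 libraries and at 0.0675 and 0.0657 in the 2 Xbp1-deficient libraries.

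Genes at the same locus did not all move with Itgb2. Itgb2 lies at chr10:76992997-77028453 on the plus strand (mm9), and 4 other genes within 200 kb passed the filter. Pttg1ip, the nearest downstream gene, had 247 and 273 TPM in control and 311 and 272 TPM in Xbp1-deficient PBs (log2 fold change -0.044, limma adjusted p = 0.769). Ube2g2, a ubiquitin-conjugating enzyme of protein disposal from the endoplasmic reticulum, was lower, from 127 and 129 TPM to 76.8 and 83.7 TPM (-0.88, adjusted p = 7.63e-05). Sumo3 and Adarb1 were not called, with -0.14 and 0.19 (adjusted p = 0.295 and 0.715).

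Genes that act with the integrins moved in both directions without Xbp1. The counts of the lists are read against the 18.0% of all genes called lower and 10.3% called higher in this comparison, and none of the lists was tested as a set. Among 12 ligand genes tested, 2 were lower and 2 higher, and the median log2 fold change was -0.0055 against 0.0041 over all genes. Icam2, a ligand of LFA-1, had TPM of 161 and 144 in control and 64.2 and 67.0 in Xbp1-deficient PBs (-1.42, SE 0.13, limma adjusted p = 9.69e-05), whereas Icam1 was slightly higher (0.25, adjusted p = 0.0412). Among 27 genes of integrin activation and adaptors, 6 were lower and 5 higher. Tln1, encoding talin, which binds beta chain tails, went from 261 and 248 TPM to 156 and 158 TPM (-0.91, SE 0.08, adjusted p = 7.6e-05), and Rasgrp2, an activator of Rap1, rose by 0.89 (adjusted p = 0.00177). Of 5 genes of protein folding in the endoplasmic reticulum, 3 were lower, namely Calr, Canx and Cnpy3 (-0.88, -0.38 and -0.37), and Hsp90b1 and Hspa5 were not called. Of 8 transcription factors known to act on integrin genes, 1 was lower, Gabpa (-0.33, adjusted p = 0.0209), and Spi1, encoding PU.1, kept 79.2 and 85.2 TPM beside 80.3 and 76.5 in the controls. None of 5 tested genes among 17 other integrin subunits was called.

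The second question was whether loss of Bhlha15 alone did the same in PBs, since Bhlha15 mRNA was nearly absent in both mutants. In CreER PBs, 0 of the 8 integrin genes that passed the filter were called in either direction, where 0.272% of genes were called lower and 0.0495% higher. Itgb2 was lower in both libraries than in both controls, with a log2 fold change of -0.23 (SE 0.09, limma adjusted p = 0.401) and a 95% interval before adjustment of -0.43 to -0.036. Itgal had nearly the same value, with TPM of 259 and 260 (-0.24, SE 0.09, adjusted p = 0.425). Itga4 had the most negative value, from 25.8 and 22.8 to 17.2 and 18.0 TPM (-0.42, SE 0.12, adjusted p = 0.28). The remaining 5 lay between -0.41 for Itgb3 and 0.21 for Itgb7. Before adjustment the 95% intervals of Itgb2, Itgal and Itga4 left out 0, but the share of all genes that did so was not counted. Nothing is read from these 3 intervals. This comparison shares its control libraries with the one that chose Itgb2.

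Set directly against each other, Xbp1-deficient PBs had 16.1-fold less Itgb2 mRNA than CreER PBs (log2 fold change -4.01, SE 0.09), again a description because the same Xbp1-deficient libraries chose the gene. Of the other 7 integrin genes, 0 were called, where 17.8% of genes were called lower and 9.34% higher. The lowest adjusted p was that of Itgav (-0.33, SE 0.12, adjusted p = 0.0658). On deposited TPM, Itgal turned to 0.19 and was called higher (adjusted p = 0.0198).

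**Figure D3:**
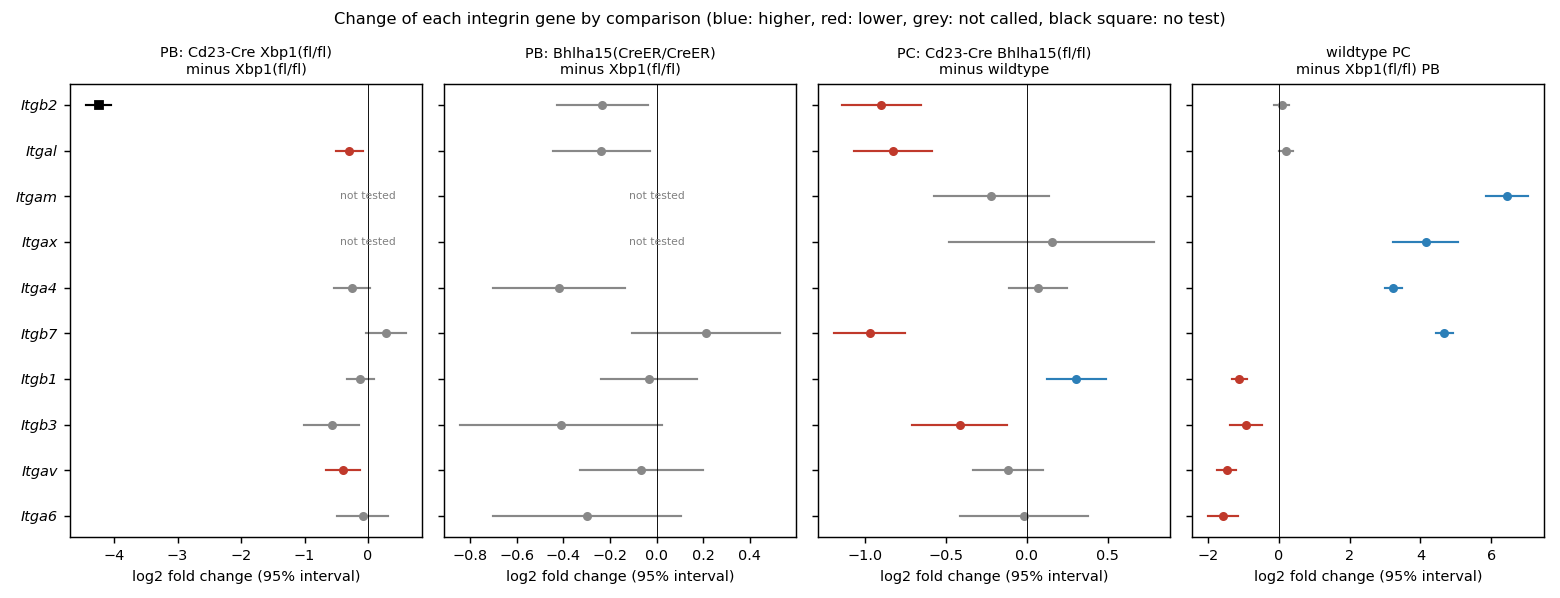
Log2 fold change of each integrin gene (x axis, its range differs between panels) with its 95% interval before adjustment, in 4 comparisons. Blue marks genes called higher, red genes called lower, grey genes not called, and the black square is Itgb2 at -4.24, for which no test is given. In PCs without Mist1, Itgb2, Itgal and Itgb7 lie between -0.97 and -0.83.

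In PCs, loss of Mist1 was accompanied by a fall of both chains of LFA-1 and of Itgb7. Itgb2 TPM were 402 and 344 in control and 196 and 197 in Mist1-deficient PCs, a 1.87-fold fall (log2 fold change -0.90, SE 0.10, limma adjusted p = 0.00313). Itgal TPM were 422 and 364 and then 221 and 215, a 1.77-fold fall (-0.83, SE 0.10, adjusted p = 0.00372). Itgb7 TPM were 190 and 168 and then 88.5 and 91.3, a 1.96-fold fall (-0.97, SE 0.09, adjusted p = 0.00213). The 2 groups did not overlap for any of these 3 genes, and the calls held under every alternative tried. The Itgb2 to Itgal ratio was 0.952 and 0.946 in control and 0.887 and 0.917 in Mist1-deficient PCs, so the 2 chains fell by nearly the same factor.

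In all, 4 of the 10 integrin genes were called lower and 1 higher in PCs without Mist1, where 16.2% of 12028 genes were called lower and 13.3% higher, and 0 passed the study's rule of over 3-fold, which 0.723% of genes passed as lower and 0.125% as higher. Besides those 3, Itgb3 was lower, with TPM of 16.6 and 14.3 and then 11.2 and 11.6 (-0.41, SE 0.12, limma adjusted p = 0.0483). Itgb1 was higher, with 81.1 and 75.0 TPM in control and 95.5 and 94.6 TPM in Mist1-deficient PCs (0.30, SE 0.07, adjusted p = 0.0298). The call of Itgb3 was lost without control PC replicate 1 or without either Mist1-deficient PC library (adjusted p = 0.116 to 0.191), and under quantile normalization, without the filter, without the variance trend and in a fit of all 10 libraries (adjusted p = 0.0689, 0.0826, 0.0886 and 0.162). The call of Itgb1 was lost without either Mist1-deficient PC library (adjusted p = 0.144 and 0.16) and without the variance trend (adjusted p = 0.0903). Itga4, the alpha partner of Itgb7, did not follow it, with 239 and 256 TPM in control and 273 and 241 TPM without Mist1 (0.068, 95% interval -0.11 to 0.25, adjusted p = 0.511). The ratio of Itgb7 to Itgb1 TPM, the 2 chains that can pair with Itga4, went from 2.29 ± 0.072 to 0.946 ± 0.026 (SD, n = 2).

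Itgam and Itgax overlapped between the PC groups. Itgam TPM were 22.1 and 29.6 in control and 23.6 and 19.9 in Mist1-deficient PCs (log2 fold change -0.22, limma adjusted p = 0.291), and Itgax TPM were 2.37 and 2.91 and then 3.52 and 2.37 (0.15, adjusted p = 0.685). Itgav and Itga6 had values of -0.12 and -0.020 (adjusted p = 0.351 and 0.936). Marker genes of other leukocytes were present in the PC libraries. The summed TPM of 11 neutrophil genes was 1011 and 479 in control and 873 and 576 in Mist1-deficient PCs, with 0 of 11 called. The sum of 12 macrophage and dendritic cell genes was 243 and 237 and then 225 and 188, with 0 of 10 tested genes called, and its part in the lower Itgb2 and Itgal was not tested. In a bulk sample, fewer cells of a type and less RNA per cell cannot be told apart.

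Beside 16.2% of all genes called lower and 13.3% called higher in PCs without Mist1, and with no list tested as a set, 2 of 8 integrin gene regulators were lower. Klf2, a factor that governs lymphocyte trafficking genes, had TPM of 291 and 211 in control and 158 and 134 in Mist1-deficient PCs (-0.75, SE 0.18, limma adjusted p = 0.0269), and Runx3 had 35.3 and 35.6 TPM and then 20.3 and 24.7 TPM (-0.64, adjusted p = 0.0104). Of 9 ligand genes, Icam1 and Icam2 were lower (-0.35 and -0.45) and Icam4, Icam5 and F11r higher (0.95, 1.63 and 1.02). The higher ones were at low TPM. Icam5 had 0.79 and 1.38 TPM in control and 3.02 and 3.81 TPM in Mist1-deficient PCs, and would not have passed the filter without the latter. Of 26 activation and adaptor genes, 5 were lower and 7 higher, Tln1 among the lower (-0.32, adjusted p = 0.0139). None of the 5 folding genes was called. Of 10 tested genes among the other integrin subunits, Itga1 was lower (-1.09, adjusted p = 0.0493) and Itga2 higher (1.38, adjusted p = 0.029). Both were at low TPM, and Itga2 passed the filter through the Mist1-deficient PCs alone.

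The Mist1 contrast was then compared between PCs and PBs by an interaction term in a fit of all 10 libraries. The log2 fold change without Bhlha15 was more negative in PCs than in PBs by 0.65 for Itgb2, by 0.58 for Itgal and by 1.17 for Itgb7, as the differences of -0.65 (SE 0.13), -0.58 (SE 0.13) and -1.17 (SE 0.15) show (limma adjusted p = 0.0223, 0.0334 and 0.00768). These were 3 of the 10 integrin genes, where 4.17% of 13230 genes were called lower and 1.94% higher, and 0 of the 10 were called higher. The 2 mutants differ in allele as well as in cell type, and cultured PBs differ from PCs in many ways, so these cannot be told apart. The Itgal call was lost without 8 of the 10 libraries in turn (adjusted p up to 0.117), that of Itgb2 without 4 (up to 0.0822), namely control PB replicate 2, CreER replicate 2 and either Mist1-deficient PC library, and that of Itgb7 held in each of these. Without the variance trend the calls of Itgb2 and Itgal were lost (adjusted p = 0.0749 and 0.0946), as was that of Itgal without the filter (adjusted p = 0.0566). The 2 libraries whose removal kept the Itgal call were CreER replicate 1 and control PC replicate 2.

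Between control PCs and control PBs, the chains of LFA-1 had the smallest log2 differences of the 10 genes. Itgb2 differed by 0.078 on the log2 scale (SE 0.09, limma adjusted p = 0.439) and Itgal by 0.20 (SE 0.09, adjusted p = 0.0664). On deposited TPM, where the median gene was 0.12 higher in PCs, they differed by 0.19 and 0.31 and were called higher (adjusted p = 0.0348 and 0.00237). Under quantile normalization they differed by 0.30 and 0.42 (adjusted p = 0.00324 and 0.000312), and they were called as well without control PC replicate 2 (adjusted p = 0.0287 and 0.00503). Of the 10 genes, 4 were called higher and 4 lower, where 37.6% of 13230 genes were called higher and 38.4% lower, so a call by itself says little here. Itgam and Itgax, 2 of the 4 higher, passed the filter through the PC libraries alone and had to differ. Culture, site and stage differ together between these groups and cannot be told apart.

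The chains of the gut homing receptor were the most increased among the integrin genes well above 1 TPM in both kinds of cell. Itgb7 TPM were 6.45 and 6.33 in control PBs and 190 and 168 in control PCs, which is 25.5-fold higher (log2 fold change 4.67, SE 0.11, limma adjusted p = 4.76e-09). Itga4 TPM were 25.8 and 22.8 and then 239 and 256, which is 9.41-fold higher (3.23, SE 0.10, adjusted p = 2.65e-08). The exons of Itga4 overlap those of Cerkl on the opposite strand, and whether reads were counted by strand is not given in the sources used here. Cerkl had 2.05 to 4.43 TPM in the 10 libraries, and the part of the overlap in the Itga4 values was not tested. Klf2 rose with them, from 5.79 and 5.88 to 291 and 211 TPM (5.27, SE 0.36, adjusted p = 1.44e-06). Itgam and Itgax were higher in PCs by 6.45 and 4.14 on the log2 scale. The sums of the neutrophil and the macrophage and dendritic cell genes given above for control PCs were also higher than in control PBs, and many of those genes passed the filter through PCs alone. Their part in Itgam and Itgax was not tested.

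Itgb1, Itgb3, Itgav and Itga6, chains of matrix receptors, went the other way. Itgb1 was 2.17-fold lower in control PCs (-1.12, SE 0.09, limma adjusted p = 4.59e-06), Itgb3 1.90-fold (-0.92, SE 0.20, adjusted p = 0.00209), Itgav 2.78-fold (-1.48, SE 0.11, adjusted p = 3.1e-06) and Itga6 2.97-fold (-1.57, SE 0.19, adjusted p = 5.08e-05). Outside the 10 genes, 2 of 10 tested integrin subunits were called lower and 7 higher, where 38.4% and 37.6% of all genes were. Some of the 7 passed the filter through PCs alone. The 2 lower were Itga3 and Itga5, also chains of matrix receptors. Itga3 went from 17.6 and 20.6 to 1.70 and 2.35 TPM, and Itga5 from 14.3 and 18.2 to 2.02 and 2.93 TPM. Itgb5, by contrast, had 12.6 and 14.0 TPM in control PBs and 28.5 and 22.4 in control PCs. Fibroblast markers moved with the lower genes. The summed TPM of 10 fibroblast genes, such as collagens, was 883 to 1689 in the 6 PB libraries and 3.51 to 4.49 in the 4 PC libraries. No count of called genes is given for this list, because most of its genes passed the filter through PBs alone. Among PBs, CreER replicate 2 had the lowest fibroblast sum (883) and also the lowest TPM of Itgb1 (132), Itgav (26.6), Itga6 (7.63) and Itgb3 (16.9). The Xbp1-deficient libraries had the highest sums, 1689 and 1547, against 1096 and 1305 in control PBs. Itgav was lower there, at 29.9 and 30.0 TPM against 32.8 and 35.5. Itgb3 stood at 25.99 and 17.1 TPM against 25.7 and 28.5. Itgb1 stood at 174 and 159 TPM against 150 and 164, and Itga6 at 14.4 and 12.4 against 11.8 and 12.8. The part of feeder cell RNA in these 4 genes was not tested. Itgb2 and Itgal differed little between the 2 CreER libraries.

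**Figure D4:**
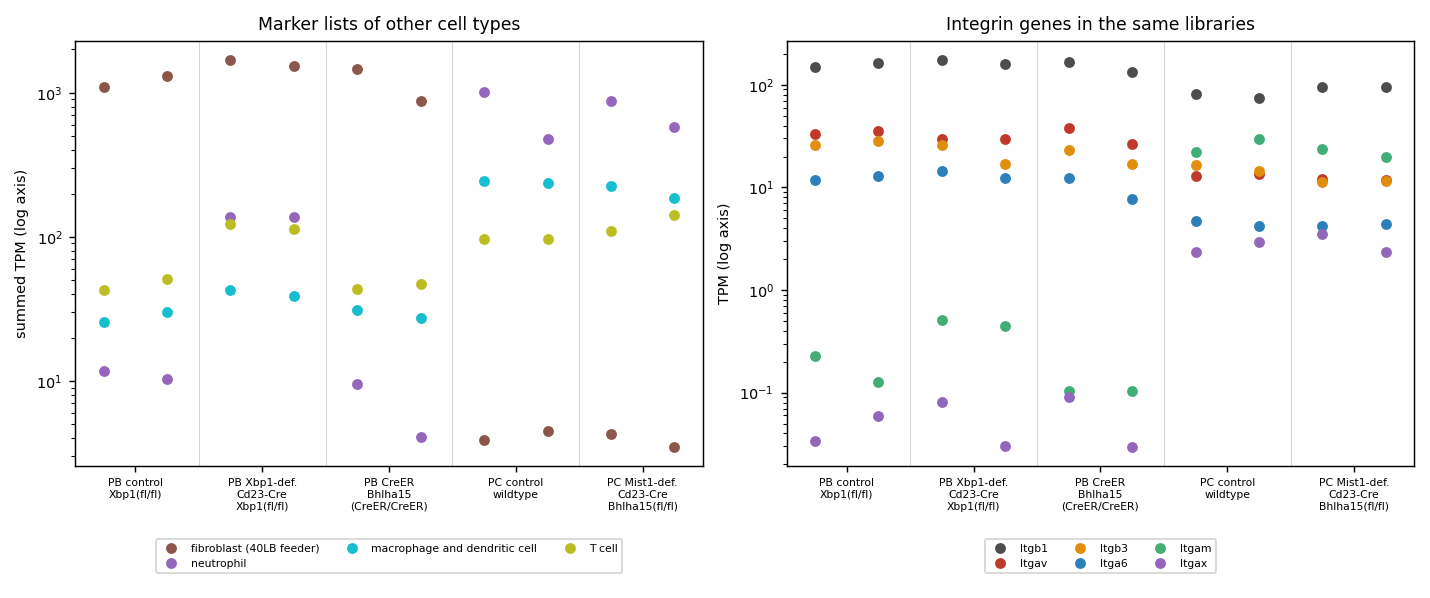
Left, summed TPM of marker lists for other cell types in each library (log axis). Right, TPM of 6 integrin genes in the same libraries (log axis), with 2 points a group on both sides. Fibroblast sums of 883 to 1689 in PBs meet sums of 3.51 to 4.49 in PCs, and Itgam and Itgax are above 1 TPM in PCs alone.

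Marker sums also differed between the PB genotypes. Neutrophil genes summed to 138 and 137 TPM in Xbp1-deficient PBs against 11.7 and 10.4 in control PBs. No count of called genes is given for them, because some passed the filter through Xbp1-deficient PBs alone. Neutrophils also express Itgb2. The fibroblast sum was 1689 and 1547 against 1096 and 1305. Plasma cell genes summed to 21664 and 21031 TPM without Xbp1 and to 41941 and 41920 in the controls. Mzb1 and Igj make up most of that sum. Of the 9 tested genes of this list, 5 were called lower and 0 higher, where 18.0% and 10.3% of all genes were. The 5 were Mzb1, Igj, Tnfrsf17, Xbp1 and Bhlha15, whereas Sdc1, Prdm1, Irf4 and Tnfrsf13b were not called. Xbp1 is the gene deleted in this comparison, and the fall of Bhlha15 without it is given above. The calls of Xbp1 and Bhlha15 therefore add nothing to the count. B cell genes summed to 4028 and 3883 TPM without Xbp1 and to 2964 and 2934 in the controls. Of their 9 tested genes, 2 were called lower and 2 higher, against the same shares of all genes. T cell genes summed to 123 and 114 TPM without Xbp1 and to 43.0 and 51.1 in the controls, most of it Thy1. The part of these lists in the integrin values was not tested.

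The 5 genes whose scaled log2 TPM followed Itgb2 most closely over the 10 libraries, of 13229 compared, were Pbxip1 (Pearson r = 0.998), Magt1 (0.998), Mlec (0.997), Dpp3 (0.996) and Ero1lb (0.995). Magt1 (a subunit of an oligosaccharyl transferase), Mlec (a lectin of the endoplasmic reticulum) and Ero1lb (an oxidase for disulphide bonds) are parts of the secretory pathway. Magt1 TPM were 354 and 333 in control PBs, 77.1 and 82.6 in Xbp1-deficient PBs and between 250 and 353 in the other 6 libraries. Itgal had r = 0.29 and stood at place 3882 of the same genes, and Itgb7 had r = 0.32. These values are a description. The libraries fall into groups of 2, and they include the 2 Xbp1-deficient libraries whose low level chose Itgb2.

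The last question was whether Mist1 bound at these genes. A common region is one where peaks of both lists overlap by at least 1 bp, and the lists of 29413 and 30247 peaks gave 23804 of them. These lists are shorter than those the study describes, so a region not found here may be a peak of the longer lists. Of the 10 integrin genes, 8 had a common region within 1 kb of an annotated start, where 65.0% of 10667 protein-coding genes tested in PCs and 35.8% of all had one. All 10 had at least 1 in the gene or within 10 kb, as had 83.8% of the tested genes and 54.0% of all. The count stayed at 8 within 2.5 kb and with 50% overlap of the peaks, where 67.6% and 60.1% of the tested genes had such a region. These shares were not tested against each other, and most of the tested genes had such a region.

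Itgb2 had a common region at chr10:76992506-76994246, from -491 to 1249 bp relative to its start, and the downstream one at chr10:77029306-77029868 whose centre is printed above, with 2 E-boxes of which 1 is CAGCTG. Itgal (chr7:134439774-134478651) had one at its start, chr7:134439450-134440463, and 2 upstream of it. The 200-base centre of the region at the start held 3 E-boxes for Itgb2 and 2 for Itgal, and 1 of them was CAGCTG in each gene. Itgb7 (chr15:102046426-102062366, minus strand) had no common region at its start but had one over an exon inside the gene, chr15:102054594-102056261, without an E-box in its central 200 bases. Another lay beyond its 3′ end, over Zfp740, at chr15:102038117-102039541, with 2 E-boxes in its central 200 bases. The common regions of Itgam and Itga6 that counted as at a start began 6841 and 39201 bp inside the gene, at an alternative start. Itgb1, whose mRNA was higher without Mist1, and Itga4, which was not called, also had a region at the start. At the 200-base centres of all common regions, 76.7% held an E-box and 27.9% the form CAGCTG.

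**Figure D5:**
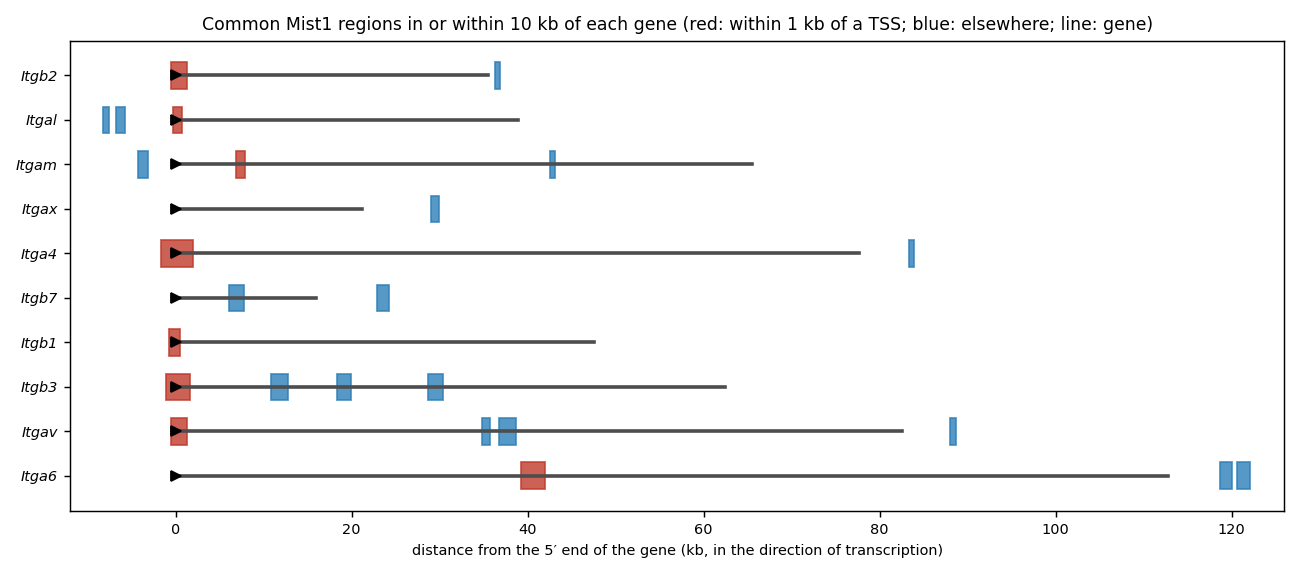
Common Mist1 regions in or within 10 kb of each integrin gene, by distance from the gene's 5′ end (x axis, kb, in the direction of transcription), with a line for the gene and a triangle at its 5′ end. Red regions lie within 1 kb of an annotated start and blue ones elsewhere, and 8 of the 10 genes have a red one, Itgax and Itgb7 being the exceptions.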

How the data were processed

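RNA-seq was available for 10 libraries (6 PB, 4 PC; 2 per genotype) and Mist1 Bio-ChIP-seq as 2 peak lists. Per the labels and methods, the authors trimmed reads with cutadapt, aligned them with STAR 2.4.2 to mm9, counted genes with featureCounts 1.5 and deposited TPM without immunoglobulin and T cell receptor genes; ChIP reads were aligned with Bowtie 1.0.0, with SAMtools 1.9 and Picard 2.18.27 used downstream, and peaks were called per sample with MACS. The peak lists were used for positions alone. TPM hold no depth. A trailing mark on some symbols, which flags overlapping genes, was removed.

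Values were scaled by the median of ratios, genes reaching 1 TPM in 2 or more libraries entered each fit, and log2(TPM + 0.1) was fitted with limma 3.58.1 (R 4.3.3; moderated by trend) with Benjamini-Hochberg adjustment over all genes tested: 6 PB libraries, 4 PC libraries, or all 10 for PCs against PBs and the interaction. The study used DESeq2 on counts, which were not used here; with 2 libraries per group an exact permutation test cannot go below p = 0.333. The fold understates changes of low genes. The fit was tested on simulated data. Peaks were joined with bedtools 2.31.1 and placed on the GENCODE genes of mm9. All 10 integrin genes are named; list genes are named where called, by example, and the 5 genes most like Itgb2 by Pearson r. The genes and lists were chosen with earlier results of these data known. Alternatives covered scaling, pseudocount, filter, variance trend, libraries fitted and each library left out. Replicate pairs differed by a median of 0.077 to 0.14 on the log2 scale, and no 2 libraries were identical.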

Additional observations from a re-analysis of the deposited data

Results flagged for a closer look

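For 3 integrin genes, the change without Bhlha15 differed between PCs and PBs by the interaction term of the fit of all 10 libraries. The log2 fold change in PCs minus that in PBs was -0.65 for Itgb2, -0.58 for Itgal and -1.17 for Itgb7 (limma adjusted p = 0.0223, 0.0334 and 0.00768). Without the variance trend the calls of Itgb2 and Itgal were lost (adjusted p = 0.0749 and 0.0946), and with a library left out that of Itgal was lost in 8 of 10 cases and that of Itgb2 in 4, whereas that of Itgb7 held. Within PCs, the fall was seen in 2 of 2 libraries against both controls for each gene, and within PBs, Itgb2 and Itgal were lower and Itgb7 higher in 2 of 2 libraries without passing the test. Of all 13230 genes, 4.17% were called lower and 1.94% higher by this term.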

How the results depend on the processing

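Results were recomputed with unscaled TPM, with quantile normalization, with pseudocounts of 1 and 0.01, no filter, at least 5 TPM in 2 libraries, no variance trend, other sets of libraries and each library left out; the last leaves 1 group with 1 library, which is assumed to vary like the others. The counts of members called lower without Xbp1 (2) fell to 0 on deposited TPM, under quantile normalization, without the filter and without the trend, and ranged from 0 to 3 with a library left out; those called higher (0) became 1 on deposited TPM. Against CreER PBs, members called higher (0) became 2 on deposited TPM and 1 under quantile normalization, and members called lower became 1 at 5 TPM, both ranging from 0 to 1 with a library left out. In PCs, the 4 members called lower became 3 under quantile normalization, without the filter, without the trend and in a fit of all 10 libraries, and the 1 member called higher became 0 without the trend (0 to 1 with a library left out). For the interaction, members called higher became 1 on deposited TPM and those called lower (3) became 1 without the trend (1 to 3 with a library left out). Scaling over 10 libraries moved the mean Itgb2 level to 285 in CreER PBs, 18.5 in Xbp1-deficient PBs and 191 in Mist1-deficient PCs and kept the order. Members with a Mist1 region at a start stayed at 8 with 2.5 kb or 50% overlap. The cause was not tested. No member called in the report changed sign. Of those not called, the following log2 values did. On deposited TPM, without Xbp1, Itga6 became 0.12 and Itgb1 0.087 (0.021 under quantile normalization), and against CreER PBs, Itgal became 0.19 (0.19 under quantile normalization), Itgb1 0.16 (0.10) and Itgb3 0.089. In PCs, Itga6 became 0.078 under quantile normalization. In the interaction, Itgam became -0.11 at a pseudocount of 1 and Itgax -0.070 at 0.01. With a library left out, values without Xbp1 ranged for Itga6 from -0.21 to 0.023. In CreER against control PBs they ranged for Itgav from -0.23 to 0.11, Itgb1 from -0.12 to 0.066. In Xbp1-deficient against CreER PBs they ranged for Itga6 from -0.054 to 0.47, Itgal from -0.14 to 0.021, Itgb1 from -0.19 to 0.0048, Itgb3 from -0.47 to 0.14, Itgb7 from -0.061 to 0.20. In PCs without Mist1 they ranged for Itga4 from -0.016 to 0.16, Itga6 from -0.12 to 0.084, Itgax from -0.12 to 0.43. In control PCs against control PBs they ranged for Itgb2 from -0.057 to 0.22. In the interaction they ranged for Itgam from -0.076 to 0.49, Itgav from -0.23 to 0.16, Itgax from -0.23 to 0.32, Itgb3 from -0.17 to 0.18. No paired analysis was possible because the labels carry no replicate numbers shared between groups. Depth is unknown for TPM.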
